A study of Mus musculus with 24 samples.

Results

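Th2 differentiation at rest was followed in CD4+ T cells that lack BAF180, by comparing resting Th2 cells with the resting Naïve cells from which such cultures start. The comparison rests on 6 of the 24 arrays of the series, 3 of BAF180-deficient resting Th2 cells and 3 of BAF180-deficient resting Naïve cells, which were taken by the cell type and genotype in their labels. Transcripts were quantified with Illumina BeadChips (MouseRef-8 v2), and each group has replicates A, B and C. BAF180 is encoded by Pbrm1. The BAF180-deficient mice carried a floxed Pbrm1 gene and CD4-Cre, a recombinase driven by the CD4 promoter, so that the deletion took place in developing T cells and was then carried by their progeny. The labels name the strain Balb/c for both genotypes and the methods describe a mixed B6-129 background, and which of them applies to the arrays is not given. Naïve cells of both genotypes were CD4+ T cells selected to 95% purity from spleen and lymph nodes of mice 4 to 6 weeks old. Th2 cells of both genotypes were Naïve cells placed on plate-bound anti-CD3 (1 µg/ml) and anti-CD28 (2 µg/ml) with IL-4 (10 ng/ml) and anti-IFN-gamma (10 µg/ml), given IL-2 (100 U/ml) at 24 h and expanded in IL-2 from day 3. They were not restimulated, and the day of harvest is not given in the sources used here.

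The same change in WT cells, on 6 other arrays, was the first point of comparison. The second was BAF180-deficient Naïve cells that had spent 24 h on anti-CD3 and anti-CD28 without IL-4 (3 arrays), called stimulated Naïve cells below. The legend of the study speaks of pairs of mice, but the labels do not say that the replicates of a group are separate animals, so that p-values measure the spread between these samples only.

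A Naïve CD4+ T cell becomes a Th2 cell when its antigen receptor is engaged while IL-4 is present. IL-4 activates STAT6, which raises GATA3, the factor that opens the Il4, Il5 and Il13 genes, and the cell divides, leaves the quiescent state and loses the genes of other T helper lineages. BAF180 is a subunit particular to the PBAF form of SWI/SNF, an ATP-driven enzyme that moves nucleosomes.

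Values are normalized intensities on the log2 scale, so that a difference of 1 is a 2-fold change. A gene, read on its brightest probe, was called when its limma p-value adjusted over all probes was below 0.05 and its difference was at least 1. A probe was counted as detected on an array at a detection p of at most 0.02. Where no array of a group detected the gene, the change is a lower bound, written as at least N-fold. For it, each array of that group takes the lowest signal of any probe detected there, or the gene's own value if higher. Normalization kept a floor of about 4 under all genes, so that differences of dim genes are understated.

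Between 9753 and 10432 probes were detected on the Th2 arrays without BAF180, and between 8417 and 9234 on the Naïve arrays. Pbrm1 read 7.88, 7.28 and 7.42 in BAF180-deficient Naïve cells of replicates A, B and C, and 7.16, 7.22 and 7.02 in Th2 cells. In WT cells it read 8.20, 8.72 and 8.69 as Naïve and 9.06, 9.06 and 8.88 as Th2 cells, above every BAF180-deficient array. It was not called (-0.39), and the other two of its 3 probes had a difference of the opposite sign. Where its probes lie relative to the deleted part of the gene is not given in the sources used here, so these levels do not check the deletion. The study checked it by immunoblot of Th2 cells and reported that the BAF180 protein was completely lost. The 8 CD4 T cell markers were detected on all 6 arrays, and none was called. Cd3e, a chain of the receptor complex, read 11.07, 10.70 and 10.35 in Naïve cells and 10.47, 10.35 and 9.91 in Th2 cells, and the ranges met at 10.35. Replicate C stood apart for some genes in both states. Its Naïve array was the lowest for Il10, Irf4, Nfil3 and Cdkn1a, and its Th2 array kept the highest level of B cell markers.

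Of 10419 genes, 769 (7.38%) were higher and 844 (8.10%) lower in Th2 than in Naïve cells without BAF180. For 5206 genes (50.0%) the 3 Th2 arrays did not overlap the 3 Naïve arrays. WT cells gave 809 higher (7.76%) and 835 lower genes (8.01%). Of the genes called higher without BAF180, 611 were also called in WT cells, which is 79.5% of the BAF180-deficient and 75.5% of the WT list. For lower genes it was 699, or 82.8% and 83.7%. No gene was called in opposite directions. The remaining 158 higher genes all had a WT difference above 0, and 144 of the remaining 145 lower genes had one below 0. Across all genes the changes of the genotypes had a Pearson r of 0.950 and a Spearman rho of 0.904, as a description, since genes are not replicates. The difference between the changes was tested as an interaction, called at an adjusted p below 0.05 with no limit on its size. It was called for 1 gene (0.00960%), 4930486L24Rik, and 298 genes (2.86%) had an unadjusted p below 0.05. The 95% interval of that difference lay within 1 either way for 8114 genes (77.9%), with a median half-width of 0.572. The share was lower among genes that moved, 355 of the 769 higher (46.2%) and 468 of the 844 lower genes (55.5%). For the remaining genes these arrays do not bound the difference to 2-fold.

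**Figure D1:**
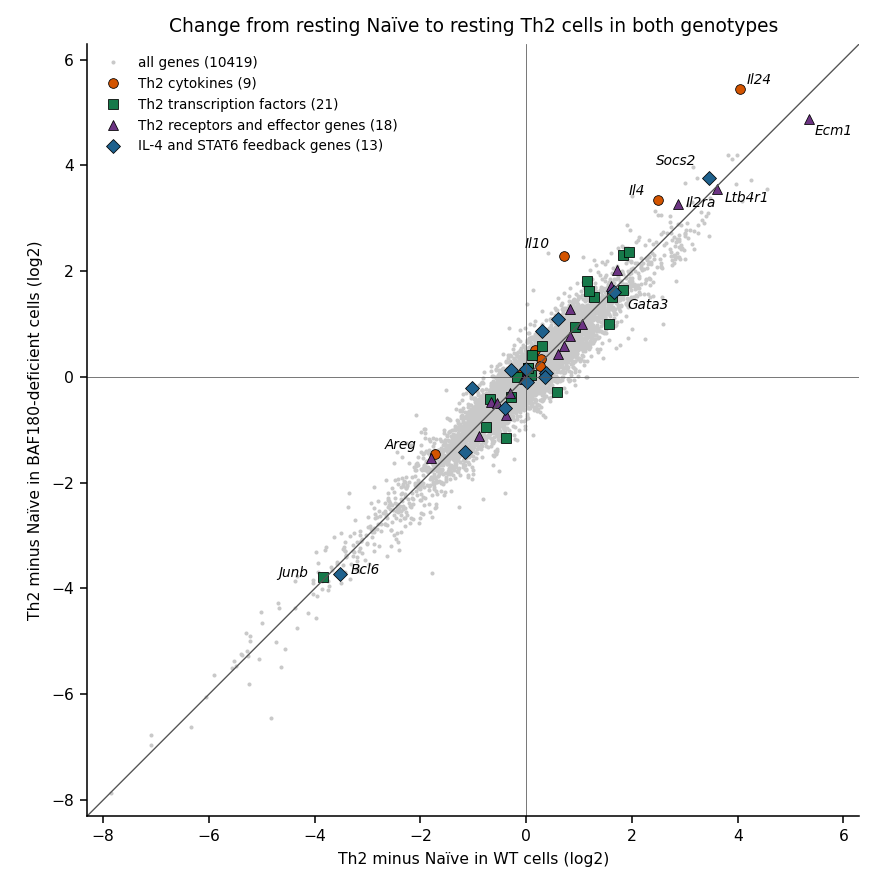
Change from resting Naïve to resting Th2 cells in WT (horizontal axis, log2 difference) and BAF180-deficient cells (vertical axis, log2 difference), 1 point per gene, with the 4 lists of Th2 genes as coloured shapes and the line of equal change. The genes of the Th2 lists lie along the line, with Il10 (0.71 in WT, 2.29 without BAF180) and Il24 (4.04 and 5.45) farthest above it.

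The 4 Th2 lists held genes known for the Th2 program: cytokines, transcription factors, receptors and effector genes, and genes of the IL-4 receptor and STAT6 pathway with its feedback regulators. These lists were written with earlier results of these data known, so that shares of called members are a description and not a test. Of their 68 genes, 66 were on the array and 61 were kept. Il9, Il31, Il25, Stat5b, Bhlhe41, Crlf2 and Alox5 were not. Without BAF180, 20 of the 61 rose (32.8%, against 7.38% of all genes), 6 fell (9.84%, near the 8.10% of all genes) and 35 were not called, with a median difference of 0.20, against 0.00 over all genes. In WT cells 17 rose and 6 fell, with a median of 0.29. The interaction was called for none of the 61, and 2 had an unadjusted p below 0.05 (Xbp1 and Pim2), against 2.86% of all genes. For 27 (44.3%) its interval lay within 1 either way, against 77.9% of all genes. These arrays thus bound the difference to 2-fold less often for the Th2 genes than for all genes.

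The cytokines split into those already made by the resting cells and those that were not. Il4, the cytokine that drives and defines the lineage, read 7.06, 6.75 and 6.33 in BAF180-deficient Naïve cells of replicates A, B and C and 10.48, 10.43 and 9.24 in Th2 cells. All Th2 arrays lay above all Naïve arrays, and the rise was 3.34 ± 0.49 (SE), or 10.1-fold (adjusted p = 1.98e-05). WT cells rose by 2.49, and the difference of 0.85 had an interval of -0.58 to 2.28. Il24, a member of the IL-10 family, was not detected on any Naïve array and read 10.04, 9.62 and 9.54 in Th2 cells, a rise of at least 30.3-fold (adjusted p = 2.89e-08). In WT Th2 cells it read 9.43, 8.83 and 6.76, at least 11.2-fold above Naïve cells. The BAF180-deficient arrays were the higher ones, but the interval of the difference, -0.02 to 2.83, held 0.

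Il10, an immunoregulatory cytokine, read 7.53, 7.58 and 5.45 in BAF180-deficient Naïve cells and 9.55, 9.29 and 8.60 in Th2 cells. The groups did not overlap, and the rise was 2.29 ± 0.56 (SE), or 4.9-fold (adjusted p = 0.00313). It was 1.59 without Naïve replicate C, the lowest array, and was called under every array left out in turn. WT cells read 7.01, 7.62 and 5.60 as Naïve and 7.73, 7.79 and 6.84 as Th2 cells, a difference of 0.71 that was not called (adjusted p = 0.354). All BAF180-deficient Th2 arrays lay above all WT Th2 arrays, while the Naïve arrays of the genotypes overlapped. The difference between the changes of the genotypes was 1.58 with an interval of -0.06 to 3.23. A rise particular to BAF180-deficient cells was thus not shown by this test. Of the 61 genes Il10 had the largest positive difference. By RT-PCR the study reported more Il10 mRNA and primary transcript in resting BAF180-deficient than in WT Th2 cells. That compares Th2 levels and not the change from Naïve cells.

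Il5, Il13, Il3, Csf2 and Il6 were not called at rest. Il13, an effector cytokine of allergic inflammation, was undetected in BAF180-deficient Naïve cells and read 4.89, 4.75 and 4.67 in Th2 cells, just above the floor (difference 0.50, adjusted p = 0.166). Il5, the eosinophil growth factor, was detected on 1 of the 3 Th2 arrays, at 4.67, and Il3 on none. The same genes were measured well in Th2 cells of this genotype after PMA (50 ng/ml) and ionomycin (500 ng/ml) for 1.5 h, where Il5 averaged 8.53, Il13 8.12, Il3 12.59 and Csf2 10.56. No comparison was made with those samples here. Areg, an epidermal growth factor family member, went the other way. It read 6.63, 5.83 and 5.18 in Naïve cells, was undetected in Th2 cells and fell by 1.45 (at least 2.47-fold, adjusted p = 0.00141), as it did in WT cells. The list had 3 rising and 1 falling gene of 9 (33.3% and 11.1%, against 7.38% and 8.10% of all genes).

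**Figure D2:**
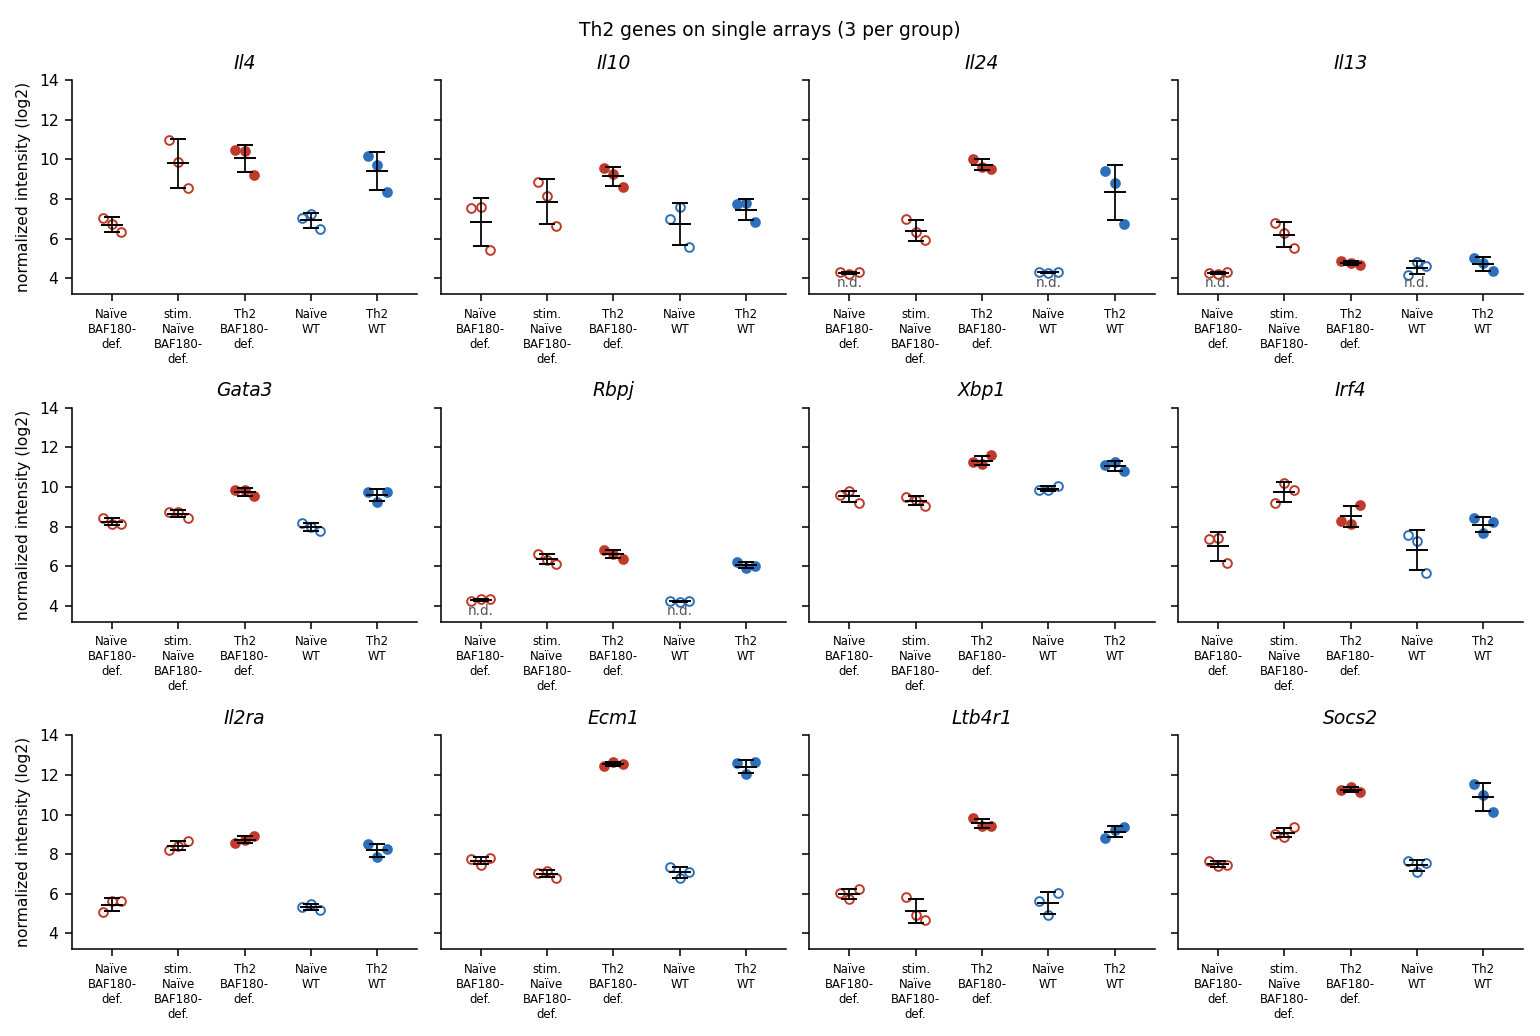
Normalized intensity (log2, vertical axis) of 12 Th2 genes on single arrays of 5 groups, with the mean and SD of 3 arrays as black bars, open circles for Naïve and filled circles for Th2 cells, red for BAF180-deficient and blue for WT, and n.d. where no array of the group detected the gene. Without BAF180, Il24 and Rbpj rise from no detection, Ecm1 reaches 12.47 to 12.67, and Il13 reads at most 4.89 in resting cells.

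Of 21 transcription factors, 8 rose (38.1%) and 1 fell (4.76%) without BAF180, against 7.38% and 8.10% of all genes. In WT cells the counts were also 8 and 1. Gata3, the lineage-defining factor, read 8.45, 8.15 and 8.15 in Naïve cells and 9.86, 9.87 and 9.53 in Th2 cells, with no overlap. It rose by 1.50 ± 0.18 (SE) without BAF180 and by 1.62 in WT cells. The difference of -0.12 had an interval of -0.65 to 0.41, which leaves room for less than a 2-fold difference either way. Irf4 and Batf, which bind DNA together in activated T cells, rose by 1.51 and 1.63. Batf read 7.20, 6.60 and 6.26 in Naïve cells and 8.59, 8.26 and 8.12 in Th2 cells. Irf4 read 7.39, 7.44 and 6.18, then 8.29, 8.15 and 9.10, so that the ranges did not overlap but replicate C moved the most. Rbpj, the DNA-binding partner of Notch receptors, was undetected in Naïve cells and read 6.82, 6.62 and 6.39 in Th2 cells, at least 3.485-fold higher.

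Crem, a factor that responds to cyclic AMP, rose by 2.36, from 5.28, 5.69 and 5.01 to 7.62, 7.65 and 7.80. Xbp1, a factor for secretory capacity, rose from 9.59, 9.79 and 9.21 to 11.26, 11.16 and 11.60, by 1.81 ± 0.17 (SE), against 1.14 in WT cells. Its difference of 0.67 had an interval of 0.18 to 1.16 that did not hold 0, but it did not pass after adjustment over all genes. Nfil3 and Notch1 were the weakest calls. Nfil3, a factor linked to cytokine expression, rose by 1.64 but by 0.941 without Naïve replicate C, and its call was also lost without Th2 replicate A or B (1.49 in each case). Notch1 rose by 1.00 at the limit (adjusted p = 0.0428), and its call was lost without any 1 of 5 of the 6 arrays, with values between 0.796 and 1.12.

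The factor that fell was Junb, an AP-1 subunit. It read 12.38, 12.47 and 11.81 in Naïve cells and 8.52, 7.95 and 8.88 in Th2 cells, a fall of 3.78 ± 0.32 (SE), or 13.7-fold, against 3.84 in WT cells. Junb is also an immediate early gene, and Egr1, another of that kind, was among the 10 largest falls, from 11.83, 12.10 and 11.04 to 6.00, 5.88 and 5.67. Gfi1, a repressor that Th2 cells use to expand, differed by 0.95 (adjusted p = 0.000583) and so missed the limit of 1 although its ranges did not overlap. Without Naïve replicate A its difference was 1.03. Stat6, the signal transducer of IL-4, differed by 0.04, with Naïve levels of 5.79, 5.09 and 5.19 and Th2 levels of 5.59, 5.36 and 5.26. Maf, which drives Il4 and Il10, was detected on 1 of the 6 arrays. Bhlhe40, a repressor of the clock family, differed by -1.16 and was not called (adjusted p = 0.119), but was called at -1.97 without Naïve replicate C, its lowest Naïve array. Nfatc1, a calcium-responsive factor, differed by -0.96, just short of the limit, and was called at -1.12 without Th2 replicate B, -1.01 without Naïve replicate A, and also without Naïve replicate B, at the limit. Stat5a, Batf3, Pparg, Nfatc2, Prdm1, Epas1 and Mecom were not called.

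Of 18 receptors and effector genes, 6 rose (33.3%) and 2 fell (11.1%), against 7.38% and 8.10% of all genes. Ecm1, an extracellular matrix protein that Th2 cells use to leave lymph nodes, read 7.76, 7.46 and 7.82 in Naïve cells and 12.47, 12.67 and 12.55 in Th2 cells. Its rise of 4.88 ± 0.19 (SE), or 29.4-fold, was the second largest of all genes that met the naming rule, and WT cells rose by 5.34. Ltb4r1, a receptor for leukotriene B4, rose by 3.56, from 6.06, 5.72 and 6.22 to 9.83, 9.42 and 9.45. Il2ra, the alpha chain of the IL-2 receptor, rose by 3.27, from 5.09, 5.66 and 5.62 to 8.55, 8.71 and 8.91. The interval of the difference from WT was -0.95 to 0.88 for Ltb4r1 and -0.19 to 0.99 for Il2ra.

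Cyp11a1, the first enzyme of steroid synthesis, was undetected in Naïve cells and read 6.43, 5.83 and 6.46 in Th2 cells, at least 2.69-fold higher. Ccr8, a chemokine receptor of Th2 cells, rose from 5.41, 5.86 and 5.44 to 7.25, 6.70 and 6.59, by 1.28. In WT cells its difference was 0.82 and was not called, and the interval of the difference was -0.40 to 1.31. Il4ra, the IL-4 receptor chain, rose by 1.01 (at least 1.37-fold) from no detection to 5.48, 5.36 and 4.97, and lost its call without Th2 replicate A (0.905) or B (0.964) or Naïve replicate C (0.981). Il1rl1, the IL-33 receptor, was not detected on any of the 6 arrays, nor on any WT resting array. Tnfrsf4, the costimulatory receptor OX40, read 6.16, 6.83 and 8.12 in Naïve cells and 8.41, 7.98 and 9.87 in Th2 cells, and the ranges overlapped (difference 1.72, adjusted p = 0.0904). Each letter rose on its own, and with the replicate letter as a block the difference of 1.72 was called (adjusted p = 0.00723), as was one of 2.26 without Naïve replicate C and no block. Ccr4 (0.44), Icos (0.78, or 1.09 and called without Naïve replicate A), Il2rb (0.59), Il17rb (-0.71), Havcr1 (-0.48), Hpgds (-0.49), Ptgdr2 and Ccr3 were not called either, and Ptgdr2 and Ccr3 were undetected on all 6 arrays. The falling genes were Lgmn, a protease of lysosomes, by 1.52, and Plaur, the urokinase receptor, by 1.11. Plaur fell by 0.562 without Naïve replicate B and then was not called.

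Of 13 genes of IL-4 signaling and its feedback, 3 rose (23.1%) and 2 fell (15.4%), against 7.38% and 8.10% of all genes. Socs2, an inhibitor of cytokine receptor signaling, read 7.67, 7.41 and 7.46 in Naïve cells and 11.23, 11.42 and 11.17 in Th2 cells, a rise of 3.75 ± 0.29 (SE) or 13.5-fold. Cish, a STAT5 target of the same family, rose from 10.49, 10.22 and 9.28 to 11.83, 11.84 and 11.13. Socs1 rose by 1.09 (at least 1.43-fold), and by 0.952 without Th2 replicate A, where it lost its call. Bcl6, the repressor that directs follicular helper cells, read 8.55, 8.93 and 7.97 in Naïve cells and 4.45, 5.03 and 4.78 in Th2 cells, a fall of 3.73 ± 0.32 (SE). Ptpn6, a phosphatase that dampens receptor signals, fell by 1.41. Socs3 differed by -0.21 without BAF180 and fell by 1.02 in WT cells, and the interval of the difference was -0.13 to 1.75. Jak1, Jak3, Il2rg, Socs5, Pim1, Pim2 and Ptpn11 were not called.

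**Figure D3:**
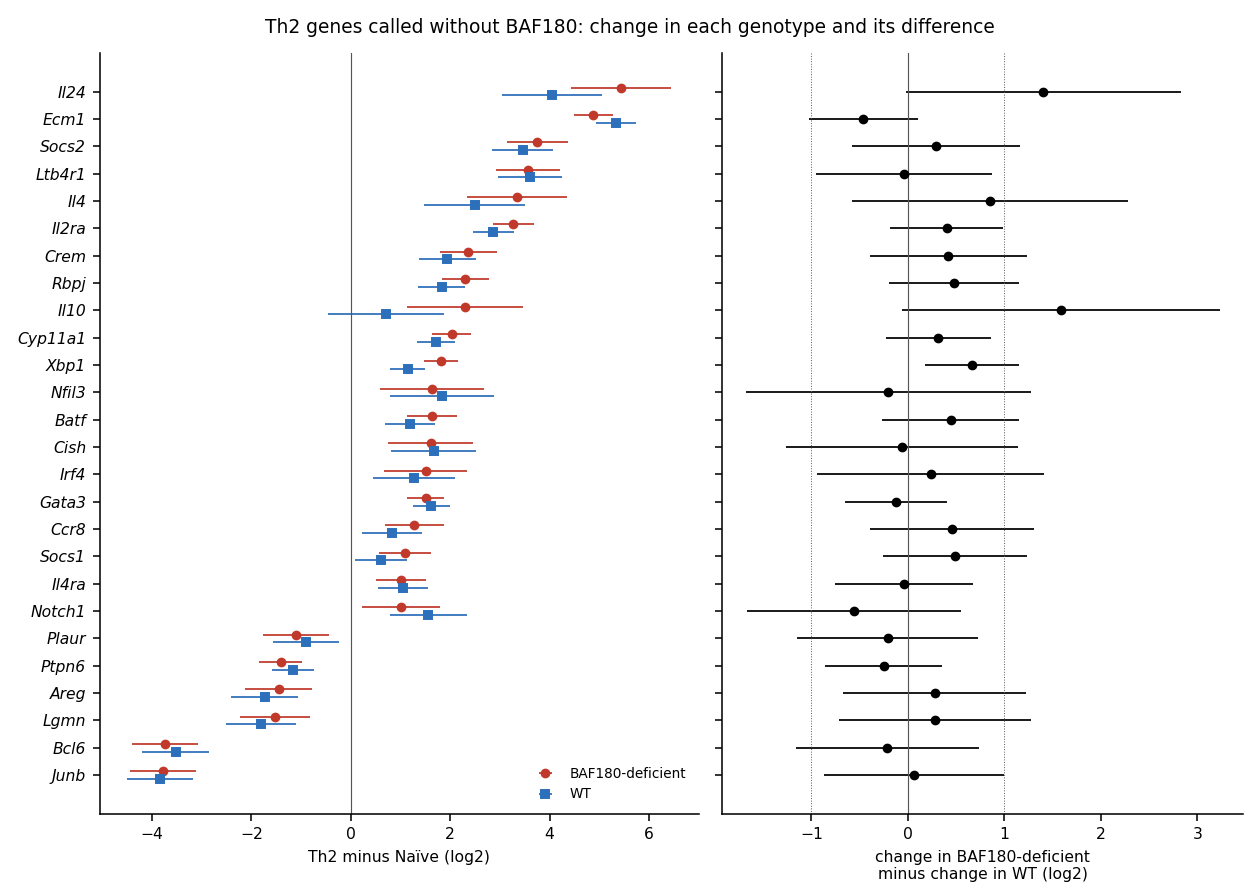
The 26 genes of the Th2 lists called without BAF180, with the change from Naïve to Th2 cells in BAF180-deficient (red circles) and WT cells (blue squares) on the left and the difference of the changes on the right, both as log2 values with 95% intervals from limma; dotted lines mark a difference of 1. The intervals of all but Xbp1 (0.18 to 1.16) hold 0 on the right.

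Promoter sequences of Th2 genes were searched for the letters of factor motifs in the 250 bases before the start of each gene (RefSeq, GRCm38.p6, both strands), which describes the letters only. A STAT6 type motif, TTC and GAA separated by any 4 bases, was found in 5.79% of the promoters of 8259 tested genes. It stood in those of Il4 (1 of 7 cytokine genes with an entry), Notch1 (1 of 16 factors) and Cyp11a1 (1 of 16 receptors and effectors, 6.25% for each of these lists). It also stood in 4 of 31 DNA replication genes (12.9%) and 2 of 23 mitosis genes (8.7%). A GATA type motif, AGATAAG, was found in 2.31%, and in Ccr8, Il1rl1 and Havcr1, 3 of 16 receptor and effector genes. The stretches of 3 genes that rose are shown with the motif in capitals, which for Ccr8 is the reverse complement.
Il4, chr11:53618798-53618857, minus strand: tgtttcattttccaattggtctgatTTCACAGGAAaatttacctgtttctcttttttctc
Cyp11a1, chr9:58014702-58014740, plus strand: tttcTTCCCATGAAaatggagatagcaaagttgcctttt
Ccr8, chr9:120091883-120091924, plus strand: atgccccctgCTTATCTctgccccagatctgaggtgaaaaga
Il24, Il10 and Socs2 had no entry in the promoter table.

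Set against stimulated Naïve cells, the Th2 genes fell into further groups. This comparison shares the BAF180-deficient Th2 arrays with the first, so that its values are given side by side and not as support. It gave 515 genes higher (4.94%) and 431 lower (4.14%) in Th2 cells, and of the 61 Th2 genes 10 and 10. Il4 read 10.99, 9.85 and 8.55 in stimulated Naïve cells, which overlapped the Th2 arrays, and the difference of 0.25 was not called. Il2ra (0.29), Batf (-0.16) and Rbpj (0.25) were also at levels that were not called different from those of cells 24 h after activation. In contrast, Ecm1 was 5.55 higher in Th2 than in stimulated Naïve cells, Ltb4r1 4.42, Il24 3.33, Socs2 2.18, Xbp1 2.04, Cyp11a1 1.98 and Gata3 1.09, all called. Irf4 was 1.23 lower, Gfi1 1.31 lower and Stat5a 1.86 lower in Th2 cells. Il3, Il5, Il13 and Csf2 were all detected in stimulated Naïve cells and lower in resting Th2 cells. Il3 read 9.44, 8.12 and 6.97 in the former and was at least 12.1-fold lower in the latter.

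Genes of the other lineages were lower more often than higher. Of 21 Th1 genes 9 fell (42.9%, against 8.10% of all genes) and 2 rose (9.52%, near the 7.38% of all genes). Ifng, the Th1 cytokine that the culture blocked with antibody, read 7.91, 7.15 and 6.63 in Naïve cells and was undetected in Th2 cells, a fall of at least 6.3-fold (adjusted p = 9.81e-06). Ccl5, a chemokine of memory and cytotoxic cells, fell by 3.70, from 9.47, 9.51 and 9.14 to 5.84, 5.80 and 5.39, and in WT cells by 1.78. The difference of -1.92 had an interval of -3.15 to -0.70, the most negative of all genes tested, and did not pass after adjustment. Cd8b1, the CD8 T cell marker measured here, moved the same way, by -1.40 without BAF180 and -0.59 in WT cells, and its part in the Ccl5 result was not tested. Il18r1, the IL-18 receptor, fell by 2.60, Fasl by 2.01 and Ccl4 by 2.95. Among the genes that rose was Il12rb1, an IL-12 receptor chain named after its values were seen (1.94). Tbx21, the Th1 factor T-bet, was detected on 1 array of each group and was not called.

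Of 9 Th17 genes 4 fell (44.4%, against 8.10% of all genes) and none rose. Rora, a Th17 factor, fell by 2.67, Ccr6 by 2.62 and Il6ra by 2.67. Il17f, a Th17 cytokine, fell by 1.19 and lost its call without Naïve replicate A (-1.02) or B (-0.943). Of 6 follicular helper genes, Bcl6, Cxcr5 (by 1.47) and Btla (by 1.30) fell (50.0%). Of 15 regulatory T cell genes 6 fell (40.0%) and 4 rose (26.7%), against 8.10% and 7.38% of all genes. Foxp3, the factor of that lineage, read 9.44, 9.43 and 8.93 in Naïve cells and 6.55, 6.78 and 7.34 in Th2 cells, a fall of 2.38 ± 0.27 (SE) without BAF180 and of 2.93 in WT cells. Itgae fell by 3.67, Ikzf2 by 3.21, Nt5e by 2.78 and Nrp1 by 2.76. Il2ra and Socs2, described above, are also on the regulatory list and rose.

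**Figure D4:**
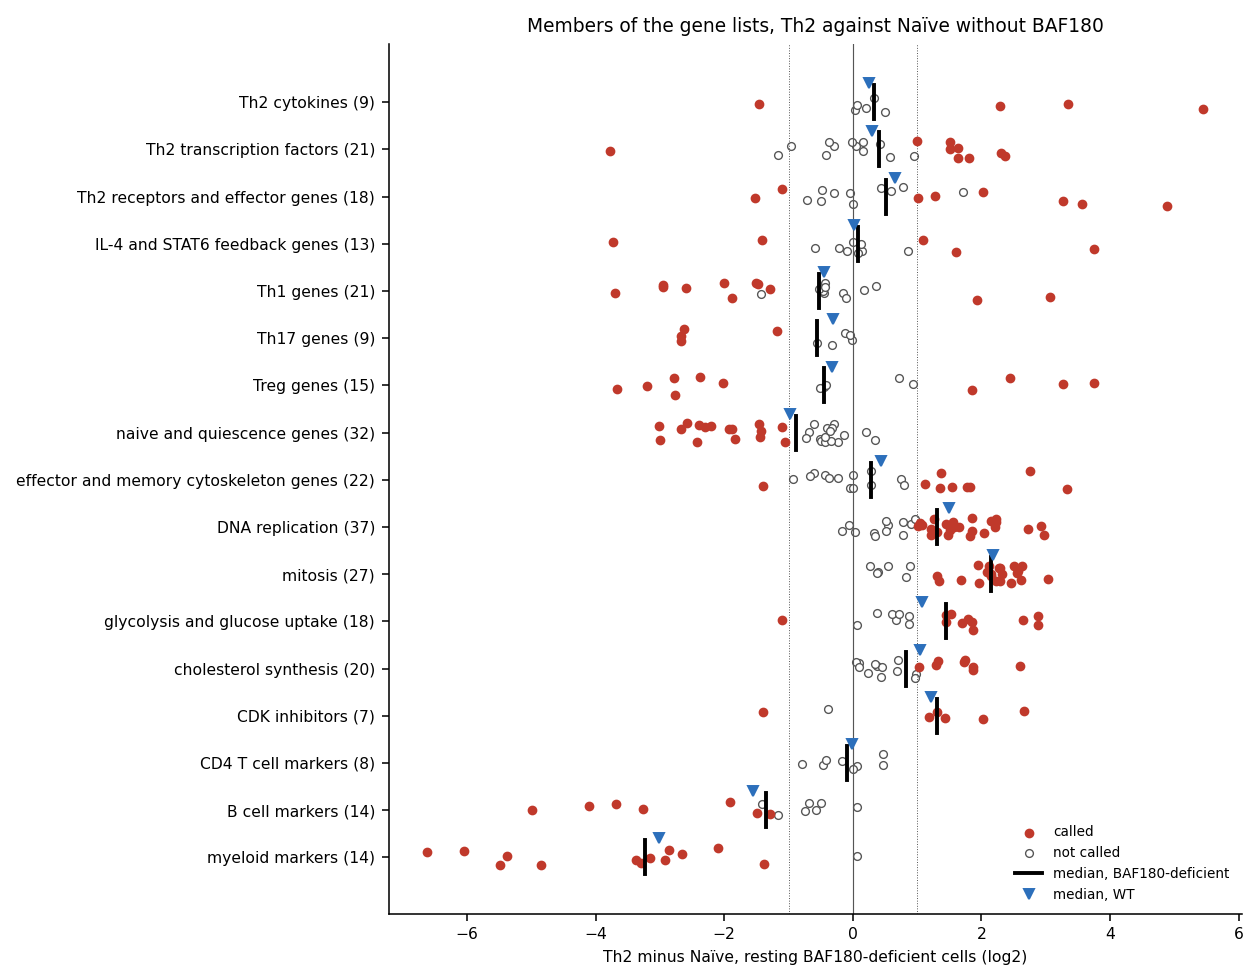
Change from resting Naïve to resting Th2 cells in BAF180-deficient cells (log2 difference, horizontal axis) for the members of 17 gene lists, with the number of genes kept; filled circles were called, open ones were not, black bars are medians without BAF180, blue triangles medians in WT cells, and dotted lines mark a difference of 1. Mitosis and DNA replication genes lie to the right (medians 2.15 and 1.30), and myeloid and naive genes to the left (-3.23 and -0.89).

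Of 32 genes of the naive and quiescent state 16 fell (50.0%, against 8.10% of all genes) and none rose. The median was -0.89 against 0.00 over all genes, and in WT cells 15 fell. Actn1 read 9.39, 9.21 and 8.81 in Naïve cells and 5.61, 6.08 and 6.69 in Th2 cells, a fall of 3.01. Ramp1 fell by 3.00, Klf3 by 2.58, Txnip, which limits glucose uptake, by 2.42, and Foxp1, a factor that keeps T cells quiescent, by 2.40. Tcf7, a factor of naive and memory T cells, fell by 1.83, from 8.19, 8.27 and 8.27 to 5.89, 6.68 and 6.66.

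Il7r, the IL-7 receptor on the same list, was not called. It read 9.48, 10.10 and 10.76, then 9.95, 10.15 and 9.34, and in stimulated Naïve cells 6.65, 6.60 and 6.88. Ccr7, a chemokine receptor for homing to lymph nodes, fell by 1.47. The mean level of the list was 8.25 to 8.38 on the Naïve arrays, 6.26 to 6.54 in stimulated Naïve cells and 7.08 to 7.19 in Th2 cells, so that the Th2 arrays lay between the other groups without overlap.

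Of 22 effector and memory genes of the cytoskeleton and membrane, 8 rose (36.4%) and 1 fell (4.55%) without BAF180. The shares of all genes were 7.38% and 8.10%. In WT cells 10 of the 22 rose. Lgals1, the lectin galectin-1, rose by 3.33, from 8.72, 8.56 and 8.61 to 11.86, 11.42 and 12.60. Vim, the filament protein vimentin, rose by 2.76, from 9.24, 8.57 and 8.27 to 11.78, 11.39 and 11.19, and Anxa2 by 1.78. All of these were also higher than in stimulated Naïve cells, Vim by 4.48. The difference of Th2 minus Naïve, with its sign, was higher in BAF180-deficient than in WT cells for 2 of the 22 genes. It was so for 5225 of all 10419 genes, which is a description, since genes are not replicates. The mean level of the list was 8.26 to 8.56 on BAF180-deficient and 7.89 to 8.09 on WT Naïve arrays. On Th2 arrays it was 8.82 to 9.01 and 8.85 to 9.1, so that the genotypes overlapped as Th2 and not as Naïve cells. The interaction had an unadjusted p below 0.05 for 3 of the 22, against 2.86% of all genes. Among them was S100a13, a calcium-binding protein that rose by 1.82 against 2.84 in WT cells, a difference of -1.02 (interval -1.80 to -0.24). S100a10 rose by 1.54 against 2.40. None passed after adjustment. Itgb1, the integrin beta1 chain, fell by 1.40, and Cd44, a memory marker, was not called (-0.60).

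Cell cycle genes rose together. Of 37 DNA replication genes 25 rose and none fell, with a median of 1.30, and of 27 mitosis genes 21 rose and none fell, with a median of 2.15, where 7.38% of all genes were called higher. The WT counts were 28 and 22. Mcm10, a replication initiation factor, read 6.07, 5.32 and 5.44 in Naïve cells and 8.27, 8.49 and 8.97 in Th2 cells. Rrm2, a subunit of the enzyme that makes deoxynucleotides, was undetected in Naïve cells and read 7.09, 7.42 and 8.30 in Th2 cells, at least 6.94-fold higher. Top2a, the topoisomerase of dividing cells, rose by 3.04, from 6.94, 6.88 and 6.87 to 9.74, 9.77 and 10.29. Cdk1, the mitotic kinase, rose by 2.63, Kif11 by 2.62, Plk1 by 2.57, Cdc20 by 2.56 and Ccnb1 by 2.50. On the replication list no gene differed by call between Th2 and stimulated Naïve cells, and on the mitosis list 4 were higher in Th2 cells.

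An E2F type motif, TTTCGCGC, stood in the promoters of Mcm5, Mcm6, Rfc3, Uhrf1 and Orc1, 5 of 31 replication genes with an entry (16.1%), and of Cdk1, 1 of 23 mitosis genes (4.35%), against 0.702% of tested genes and 0.256% of all promoters in the table. The stretches of Uhrf1, which rose by 2.23, of Cdk1 and of Mcm5 (2.15) and Mcm6 (2.05), which encode helicase subunits, are shown because these lists rose together; the genes with a match were named after their values were seen. The motif is in capitals, for Mcm6 as its reverse complement, and the match says nothing of binding.
Uhrf1, chr17:56304103-56304160, plus strand: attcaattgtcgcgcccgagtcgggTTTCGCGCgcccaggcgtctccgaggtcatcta
Cdk1, chr10:69353011-69353068, minus strand: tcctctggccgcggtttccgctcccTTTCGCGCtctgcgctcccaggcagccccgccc
Mcm5, chr8:75109331-75109388, plus strand: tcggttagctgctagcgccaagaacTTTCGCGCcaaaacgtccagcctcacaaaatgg
Mcm6, chr1:128359779-128359836, minus strand: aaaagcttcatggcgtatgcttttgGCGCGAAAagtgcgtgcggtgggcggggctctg

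Inhibitors of cyclin-dependent kinases moved in the same bulk samples. Of 7, 5 rose (71.4%) and 1 fell (14.3%), against 7.38% and 8.10% of all genes. Cdkn1a, which encodes p21, read 8.11, 8.04 and 5.96 in Naïve cells and 10.28, 10.28 and 9.52 in Th2 cells, a rise of 2.66 ± 0.47 (SE) without BAF180 and of 3.01 in WT cells. Cdkn2a was undetected in Naïve cells and read 6.33, 5.94 and 6.50 in Th2 cells, at least 2.72-fold higher. Its difference from the WT change was 0.82 (interval 0.17 to 1.46) and did not pass after adjustment. Cdkn2b (at least 1.89-fold), Cdkn2d (1.43) and Cdkn2c (1.19, or 0.933 and not called without Naïve replicate B) rose as well. Cdkn1b, the p27 inhibitor of resting T cells, fell by 1.40, from 8.32, 8.93 and 8.36 to 7.37, 7.38 and 6.66.

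Of 18 glycolysis and glucose uptake genes 10 rose (55.6%) and 1 fell (5.56%), against 7.38% and 8.10% of all genes. Tpi1 rose by 2.88, from 9.47, 9.04 and 9.10 to 12.16, 11.81 and 12.28. Aldoc rose by 2.87, Aldoa by 2.65, Gapdh by 1.85 and Pgam1 by 1.79, while Eno1 (1.87) lost its call without Th2 replicate A or B or Naïve replicate C, with values from 1.11 to 1.76. Of 20 cholesterol synthesis genes 8 rose (40.0%) and none fell. Acat2 (1.87), Fdps (1.86), Stard4 (1.73) and Lss (1.33) were among those that rose. Slc7a5, a transporter of large neutral amino acids, rose by 2.35, from 7.91, 7.83 and 8.10 to 10.04, 10.08 and 10.78, and Slc38a2 fell by 2.29. Of 11 transporters on their list 2 rose (18.2%) and 1 fell (9.09%, near the 8.10% of all genes).

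Of 69 respiratory chain genes, 12 (17.4%, against 7.38% of all genes) were called higher without BAF180, with a median of 0.57. In WT cells it was 26, where 7.76% of all genes were called higher, with a median of 0.86. The interaction was called for none of the 69 and had an unadjusted p below 0.05 for 2, against 2.86% of all genes. A smaller rise without BAF180 was thus not shown. Uqcrb, a subunit of complex III, rose by 1.64 and by 1.75 in WT cells. Of 71 mitochondrial ribosomal proteins 8 rose (11.3%), Mrpl20 by 1.52, and of 66 cytosolic ones 2 rose (3.03%), against 7.38% of all genes. Of 15 SWI/SNF subunits 1 rose and 1 fell (6.67% each), below the shares over all genes. Smarca2, the BRM ATPase, read 10.20, 10.55 and 10.38 in Naïve cells and 8.73, 8.89 and 7.84 in Th2 cells, a fall of 1.89, and WT cells fell by 1.79. Smarca4, the BRG1 ATPase, differed by 0.25 and was not called. Smarcc2 rose by 1.07 and lost its call without Naïve replicate A (0.95) or B (0.998).

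**Figure D5:**
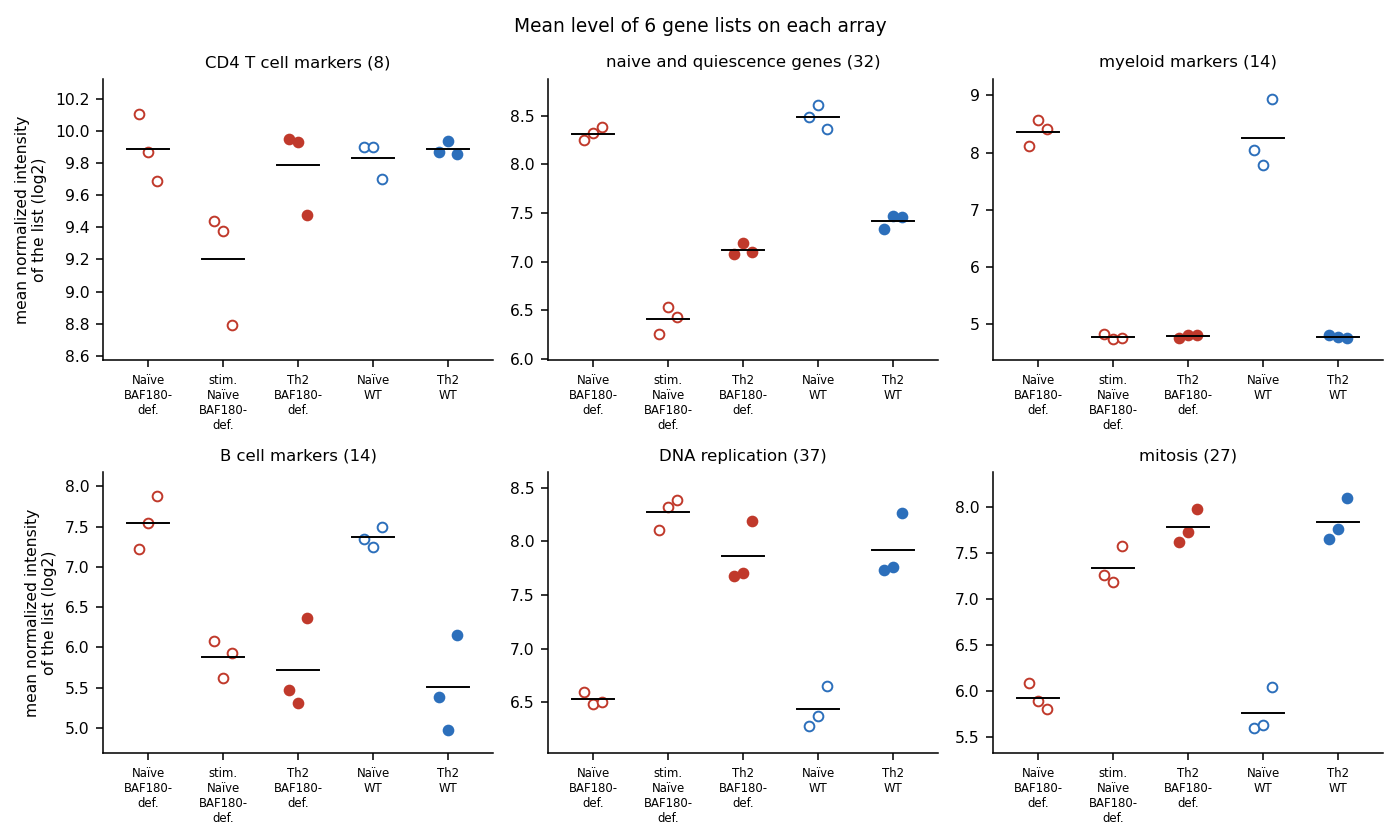
Mean normalized intensity (log2, vertical axes that differ between panels and do not start at 0) of 6 gene lists on each array, with the number of genes, open circles for Naïve and filled circles for Th2 cells, red for BAF180-deficient and blue for WT, and lines at group means. Myeloid and B cell markers are highest in resting Naïve cells of both genotypes, and B cell markers are higher on the C arrays of Th2 cells (6.36 without BAF180) than on the A and B arrays.

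Genes of other cell types moved with the comparison. Of 14 myeloid markers 13 fell (92.9%, against 8.10% of all genes) and none rose. Their mean level was 8.11 to 8.57 on the BAF180-deficient Naïve arrays, where 13 of 14 were detected, and 4.76 to 4.81 on the Th2 arrays, where 3 to 7 were. In stimulated Naïve cells it was 4.73 to 4.83. Lyz2, a macrophage lysozyme, read 9.38, 9.43 and 9.93 in Naïve cells and was undetected in Th2 cells. Of 14 B cell markers 7 fell (50.0%) and none rose, with mean levels of 7.22 to 7.88 against 5.31 to 6.36. Cd79a, a chain of the B cell receptor, read 6.41, 6.35 and 7.31, then 4.75, 4.65 and 6.20. Of 5 erythroid markers 3 fell (60.0%), and of 5 natural killer cell markers 2 fell (40.0%). Cd8b1, the 1 CD8 T cell marker kept, read 8.15, 8.18 and 8.94 in Naïve cells and 6.46, 6.58 and 8.03 in Th2 cells and fell by 1.40 (adjusted p = 0.0164). The call was lost without Th2 replicate A or B or Naïve replicate C, with values from -1.18 to -1.12. In WT cells its difference was -0.59 and not called, and the interval of the difference between the genotypes was -2.09 to 0.47. In such bulk samples fewer cells of a type and less RNA per cell cannot be told apart, and the part of these cells in the falls of other lists was not tested. None of the 20 Th2 genes that rose is on the myeloid, B cell, natural killer, erythroid or mast cell list. That describes the choice of the lists only and does not tell which cells gave the rises.

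The 10 genes with the largest fall that met the naming rule were Slc40a1, Vcam1, Fcna, Lyz1, Hba-a1, C1qb, Egr1, LOC381924, C1qc and S100a8. Slc40a1, the iron exporter, read 11.84, 12.62 and 11.92 in Naïve cells and was undetected in Th2 cells, at least 188-fold lower. Of the 10, C1qb, Lyz1 and S100a8 are on the myeloid list and Hba-a1, a haemoglobin chain, on the erythroid list. Which cells gave any of the 10 falls, on a list or not, was not tested. Lower levels than in Naïve cells were also found in WT cells for all 10.

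The largest rises were Il24, Ecm1, Cysltr1, Asns, Serpinf1, Eif4ebp1, Phlda3, Socs2, Myo6 and S100a1. Cysltr1, a receptor for cysteinyl leukotrienes, read 5.06, 4.48 and 4.35 in Naïve cells and 9.07, 9.18 and 8.25 in Th2 cells, a rise of 4.21, and its level in stimulated Naïve cells was 4.62, 4.62 and 4.35. Myo6, a motor protein, rose by 3.72, from 8.01, 7.77 and 8.18 to 11.46, 12.18 and 11.46, and S100a1 by 3.66. Both were also higher in Th2 than in stimulated Naïve cells, by 5.38 and 4.00. Asns, the asparagine synthetase, rose by 4.19 and Eif4ebp1, a brake on translation initiation, by 3.98, and neither differed by call from stimulated Naïve cells (-0.51 and -0.09). Phlda3, a p53 target, was undetected in Naïve cells and rose at least 9.81-fold. Serpinf1 rose by 4.12. All 10 were also called higher in WT cells.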

How the data were processed

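Expression was measured on 24 one-colour Illumina arrays. The authors deposited non-normalized GenomeStudio intensities with a detection p-value per probe; GenomeStudio 1.6.0 is named in the submitters' processing notes. Per the labels, samples formed 8 groups of 3 arrays (replicates A, B and C). From the deposited intensities, log2 values were computed with neqc (limma 3.58.1, R 4.3.3), which corrects background from the detection p-values, adds an offset of 16 and quantile normalizes. A probe entered the fit where any array had it at a detection p-value of 0.02 or less (14246 probes, 10419 genes), and a gene was read on its brightest probe. limma fitted 8 group means to the 24 arrays (16 residual degrees of freedom), with Benjamini-Hochberg adjustment over kept probes. An exact permutation test of 3 against 3 arrays cannot go below p = 0.1. The number of arrays limits the precision: the median SE of a difference was 0.193.

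Members and lists were chosen with earlier results of these data known. Named were all Th2 genes, the called members of other lists with the largest difference or by role, the 10 largest rises and falls without overlap between groups, the 5 lowest interaction p-values and Pbrm1. Same-lettered BAF180-deficient arrays of both states deviated together (correlations of 0.204, 0.152 and 0.131), and differently lettered ones did not (-0.1003 to -0.0501). They were read as possible pairs, from the data and not from the labels, and the main model had no block. Differently lettered Th2 arrays of the 2 genotypes reached 0.4333, so that correlations of this size do not establish pairs. Steps were tested on simulated data. Alternatives were other background correction, normalization, filters, probe rule, call criteria, sample sets and replicate blocks, and each array left out. Some named genes are not reported here.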

Additional observations from a re-analysis of the deposited data

Results flagged for a closer look

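The change from Naïve to Th2 cells differed between the genotypes by an interaction test for 4930486L24Rik. It was undetected in BAF180-deficient Naïve cells (4.43, 4.52 and 4.29) and read 7.81, 7.85 and 7.83 in Th2 cells, at least 8.11-fold higher. WT cells read 6.11, 5.86 and 5.49 as Naïve and 7.52, 7.89 and 8.05 as Th2 cells, so that the genotypes overlapped as Th2 and not as Naïve cells. The change was 3.42 without BAF180 and 2.00 in WT cells, a difference of 1.42 with an interval of 0.96 to 1.88 (adjusted p = 0.0394 by limma's moderated test). The Naïve level without BAF180 is a floor, so that the difference depends on where that floor lies. The next 4 genes by p, Lrrc75b (-0.97), Gnaz (0.70), Igfl3 (-0.90) and Gpr35 (0.82), did not pass after adjustment.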

How the results depend on the processing

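Without background correction the counts of higher and lower genes were 440 and 561 without BAF180, 479 and 546 in WT cells and 333 and 268 against stimulated Naïve cells. With Z-scores 593 genes were higher and 525 lower without BAF180, so that 53.0% of calls were higher in place of 47.7%, 591 and 520 in WT cells, and 333 higher and 242 lower against stimulated Naïve cells. With no fold limit the counts were 1897 and 1822, 1864 and 1836, and 1139 and 1157. A version of the 4 criteria of the methods gave 531 higher genes in WT cells. It set the limit of 1.5 on normalized log2 differences divided by their SD, with limma p-values, and not on Z-ratios of Z-scores. The interaction called 0 genes without background correction, with Z-scores, with no or a stricter detection filter, with the 12 resting arrays alone and with either replicate block, against 298 genes at an unadjusted limma p below 0.05. Leaving out each array in turn gave 689 to 852 higher and 767 to 885 lower genes without BAF180, 751 to 915 and 788 to 903 in WT cells, and 471 to 579 and 388 to 480 against stimulated Naïve cells. For the interaction it gave 0 to 2 higher and 0 to 4 lower genes, with 2 and 4 without resting Naïve WT replicate C and 1 lower without resting Th2 WT replicate C. The call of 4930486L24Rik was lost without any 1 of 10 of the 12 resting arrays (differences of 1.27 to 1.47) and fell to 0.833 without background correction and 0.699 with Z-scores. The cause was not tested.

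With the replicate letter as a block 774 genes were higher and 852 lower without BAF180 (774 and 853 with blocks within genotype, added after seeing the data), and among named genes of that comparison the block changed no other call than that of Tnfrsf4. In WT cells the same-letter correlations were 0.105, 0.116 and 0.0172, and the letters were not read as pairs; the block gave 816 and 844.

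Of 198 named genes, 123 kept their direction and their side of the threshold under all alternatives, 48 lost the call under at least 1, 12 gained it and 15 turned direction. Of the Th2 genes, calls were also lost without background correction by Areg (-0.88) and Ccr8 (0.915), with Z-scores by Areg (-0.758) and Cish (1.18), and with the mean of a gene's probes by Ptpn6 (-0.799). Direction turned only for genes that were not called. With Z-scores these were Batf3 (0.0335), Cd4 (0.0988), Il3 (-0.0227) and Il6 (-0.0535). With each of the 6 arrays left out in turn, the difference ran from -0.475 to 0.0685 for Cd4, -0.0165 to 0.0187 for Il1rl1, -0.0461 to 0.219 for Il2rg, -0.618 to 0.0254 for Il7r, -0.00257 to 0.253 for Maf and -0.0596 to 0.0464 for Nfatc2. It ran from -0.452 to 0.342 for Pim1, -0.0703 to 0.0166 for Ptgdr2, -0.171 to 0.307 for Socs5, -0.0891 to 0.261 for Stat6 and -0.339 to 0.114 for Tbx21. Pim1 also turned without background correction (-0.0202) and with 12 arrays (-0.00398), and Ptpn11 with the mean of its probes (0.175). The 12 resting arrays alone cannot give the comparison with stimulated Naïve cells, nor 6 arrays the interaction. Signals near the background limit the differences of dim genes.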
